A study of Danio rerio with 2 samples.

Results

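Collagen genes were described by class in 2 zebrafish RNA-seq libraries. They are the rows of the deposited gene table whose gene name, in lower case, begins with "col", a number, the letter a and a number. Of 26597 genes in the table, 57 carried such a name, and 56 of them reached 1 CPM (the usual scaling of counts to the library total) in 1 or both libraries, beside 19831 genes of any kind. By collagen number, 10 of the 56 were placed in the fibrillar class, 12 in the basement membrane class, 10 in the cartilage class, 8 among the FACITs (fibril-associated collagens with interrupted triple helices) and 16 in a remaining class called other. The gene left out by the floor was the second gene named COL10A1 (ENSDARG00000101535), at 0.973 and 0.933 CPM of the total count. The gene closest above it was the second col7a1l gene (ENSDARG00000093135), at 0.461 and 1.19 CPM, which was also the 1 collagen gene that passed through the treated library alone.

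One library was labelled wild type and the other salvianolate-treated; salvianolate is a purified extract rich in salvianolic acids, made from Salvia miltiorrhiza roots. Both were labelled as total RNA of cardiac tissue, with no other allele or agent, and a title speaks of embryos. For age, dose, duration and number of animals, values were not given in the sources used here. Together the libraries held 19531808 and 19295536 estimated counts, so 3 counts amount to 0.157 and 0.152 CPM. Heart muscle markers were at low levels: MYL7, a cardiac myosin light chain gene, was measured at 19.1 and 14.7 CPM, whereas the skeletal muscle marker actc1b stood at 14389 and 14860 CPM. Each group is a single library, so conditions were compared without replicates and without p-values. A gene was counted as different at a fold of 2 or more when the exact 95% counting interval of its ratio excluded 1. By that rule 533 genes were higher and 143 lower in the treated library, whereas the series' design text gives 109 genes up and 565 down in the treated group. Whether the labels or the direction in that text are exchanged is not known; if the labels were, every higher and lower given here would turn. Directions follow the library labels. Ratios are treated over wild type on the log2 scale, from counts scaled by TMM factors with 0.5 counts added, and the values in brackets after a ratio are its counting interval.

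Collagens are secreted proteins in which chains of glycine-rich repeats wind around each other in a triple helix. Fibrillar collagens build the cables of skin, tendon, bone and cartilage, type IV collagen builds the sheet of the basement membrane, and FACITs sit on the surface of fibrils. In fish embryos and larvae, collagen is made by chondrocytes, notochord, fibroblasts, the basal epidermis and the cells of fin folds, among others. In bulk RNA, fewer cells of a type and less RNA per cell cannot be told apart.

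Cartilage collagens were higher in the treated library as a group, while fibrillar collagens and FACITs were, in sum, lower. The median ratio of the fibrillar genes was -0.0011 and that of the FACITs -0.23. All 10 cartilage collagen genes above the floor had a ratio above 0, and the interval lay above it in 9 of them, as against 49.7% and 17.4% of all genes above the floor. The exception was col9a1b, whose interval included 0 and whose sign turned with upper-quartile scaling. Their median ratio was 0.32, beside -0.0021 over all 19831 genes. None of the 10 reached a fold of 2. Over all 56 collagens, 2 genes were counted as higher and 0 as lower, or 3.57% of members beside 2.69% of all genes that were counted as higher and 0.721% that were counted as lower. The share counted as higher is thus near that of all genes.

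**Figure D1:**
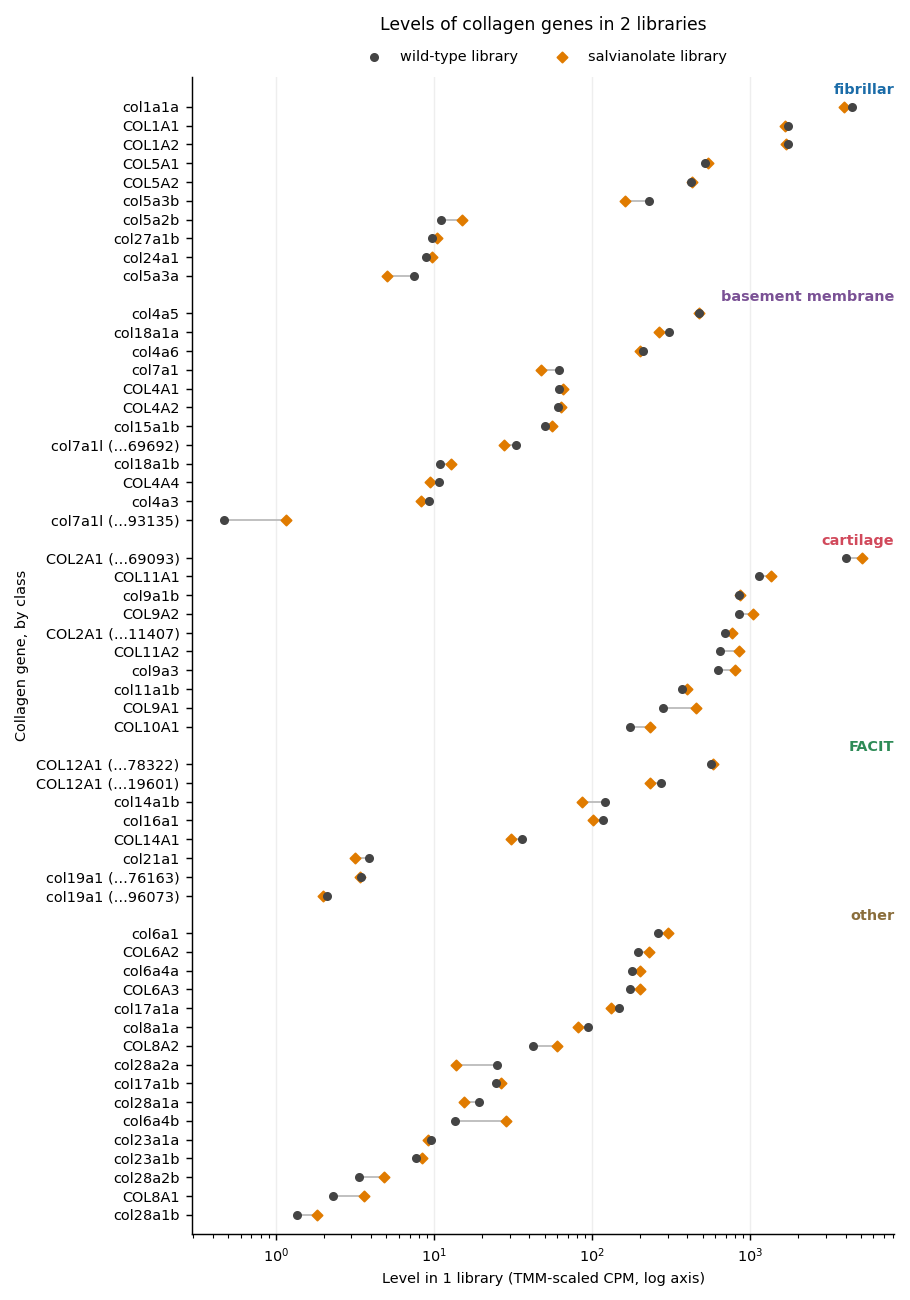
Level of each of the 56 collagen genes in the wild-type library (dark circles) and the salvianolate library (orange diamonds), as TMM-scaled CPM on a log axis, grouped by class and sorted by the wild-type level. The diamonds of the cartilage class lie to the right of the circles, from a near overlap at col9a1b to COL9A1 at 279.8 and 452 CPM.

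Most well-covered genes had ratios below 0, so the level of a gene matters for this comparison. Among the 1649 genes that reached 100 CPM in either library, a floor chosen after seeing the data, 32.0% had a ratio above 0. The interval lay above 0 in 21.2% of them and below 0 in 52.9%, with a median ratio of -0.08. All 10 cartilage collagens belong to these genes. Of the other 18 collagens at that level, 7 had a ratio above 0, 5 had an interval above it and 10 had one below it, with a median of -0.05.

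The cartilage class holds the chains of the cartilage fibril. Type II collagen makes its core, type XI is built into the same fibril, type IX, itself a FACIT, lies on its surface, and type X is a marker of hypertrophic chondrocytes in mammals. The more abundant of the genes named COL2A1 (ENSDARG00000069093) went from 4038 CPM (wild type) to 5113 CPM (treated), a ratio of 0.34 (0.33 to 0.35). The other COL2A1 gene (ENSDARG00000011407) stood at 692 and 767 CPM, with a ratio of 0.15 (0.11 to 0.18). Both type II genes were thus higher in the treated library, and their intervals did not overlap. The names table does not say which of them is the a or the b copy.

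Type IX chains spread more widely than those of types II and XI. COL9A1 (ENSDARG00000073699) had the highest ratio of the class, 0.69 (0.64 to 0.74), from 279.8 and 452 CPM, a fold of 1.61. Its copy col9a1b (ENSDARG00000031483), the more abundant of the copies per length, had the lowest, 0.0102 (-0.02 to 0.04), from 852 and 858 CPM. COL9A2 stood at 846 and 1040 CPM and col9a3 at 626 and 794 CPM, with ratios of 0.30 (0.27 to 0.33) and 0.34 (0.31 to 0.38). The α1(IX) total therefore rested on both copies in different proportions in the libraries: per length, COL9A1 stood at 102.8 and 173 FPKM (counts scaled to gene length and to the library total) and col9a1b at 299 and 314 FPKM.

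The type XI gene COL11A2 stood at 644 and 848 CPM, with a ratio of 0.40 (0.36 to 0.43). COL11A1 (ENSDARG00000026165) stood at 1138 and 1350 CPM, with a ratio of 0.25 (0.22 to 0.27). Its copy col11a1b stood at 372 and 396 CPM, with a ratio of 0.09 (0.04 to 0.14). The 3 intervals did not overlap, so that chains of this type also differed among themselves by more than counting error. COL10A1 (ENSDARG00000054753) had the second highest ratio of the class, 0.43 (0.37 to 0.49), from 173 and 233 CPM.

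**Figure D2:**
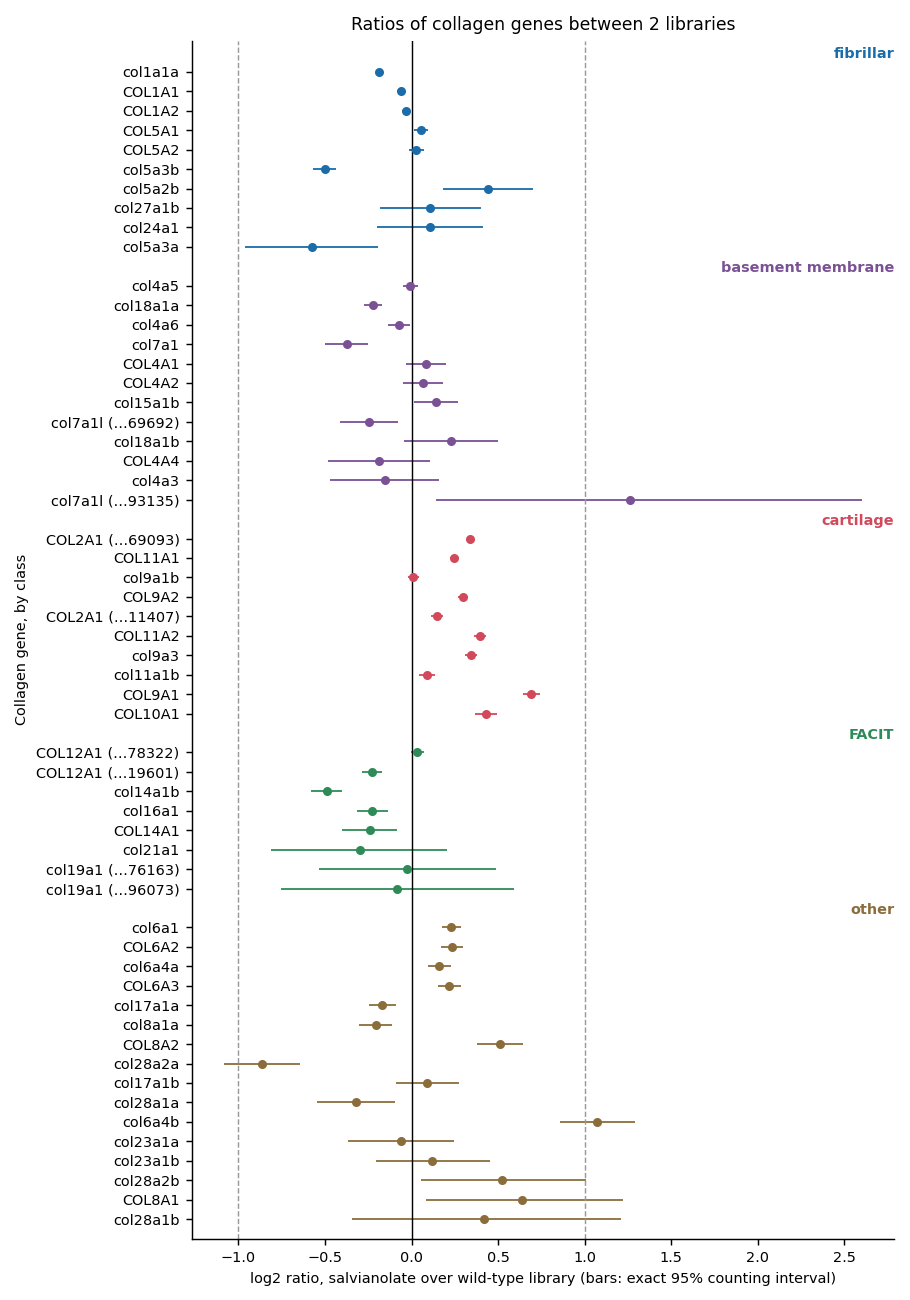
Log2 ratio of each of the 56 collagen genes, salvianolate over wild-type library, with its exact 95% counting interval as a bar, grouped by class. Dashed lines mark a fold of 2; 10 of 10 cartilage points lie right of 0, 7 of 8 FACIT points lie left of it, and col6a4b and the low second col7a1l gene lie past the right dashed line.

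Other cartilage genes were mostly higher as well, though less evenly. Of 13 marker genes above the floor, 9 had a ratio above 0, 8 had an interval above 0 and 2 below, and the median was 0.20. Over all genes above the floor, 49.7% had a ratio above 0, 17.4% an interval above it and 17.3% an interval below it. The summed level of the 13 markers was 1362 CPM (wild type) and 1849 CPM (treated), a difference that rested mainly on MATN1. MATN1, which encodes the cartilage matrix protein matrilin 1, stood at 267 and 708 CPM, the highest ratio of the list at 1.41 (1.36 to 1.46). The aggrecan genes acana and acanb, which encode the main proteoglycan core of cartilage, had 0.69 (0.58 to 0.81) and 0.90 (0.71 to 1.09). The lowest was a SOX9 gene (ENSDARG00000043923), a transcription factor of chondrocytes, at 99.7 and 66.6 CPM and a ratio of -0.58 (-0.68 to -0.48). The link protein gene hapln1a, the most abundant marker in the wild-type library, stood at 396 and 352 CPM. Bone markers stood far lower, with a summed level of 63.2 and 77.2 CPM over 8 genes, of which 7 had a ratio above 0. Notochord markers went both ways. The gene cmn stood at 172 and 180.4 CPM, with a ratio of 0.07 (0.0017 to 0.14). The gene tbxta stood at 12.8 and 9.64 CPM, with a ratio of -0.41 (-0.69 to -0.13). TBXT, at 1.15 and 1.42 CPM, had an interval that included 0, and noto was under the floor. Photoreceptor genes (cone opsin, GNAT2, PRPH2 and ROM1 genes), measured in the same libraries, had ratios of 2.17 to 2.60 in 8 of 8 markers, with a summed level of 130.4 and 688 CPM. The part of any of these in the collagen values was not tested.

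Fibrillar collagens of the connective tissue type were, in sum, lower in the treated library, which rested mainly on col1a1a. Their sum went from 9053 to 8375 CPM, and col1a1a alone from 4415 to 3879 CPM. Of the 10 genes, 5 had a ratio above 0. The ratio of the sum was -0.11, beside a median of -0.08 over all genes that reached 100 CPM. Type I collagen is the main fibril of skin, tendon and bone. The gene col1a1a (ENSDARG00000012405) stood at 4415 and 3879 CPM, with a ratio of -0.19 (-0.20 to -0.17). COL1A1 (ENSDARG00000035809) stood at 1718 and 1648 CPM and COL1A2 at 1718 and 1682 CPM, with ratios of -0.06 (-0.08 to -0.04) and -0.03 (-0.05 to -0.01). With total-count scaling, COL1A1 and COL1A2 turned to the other side of 0, while col1a1a did not. The unequal change of col1a1a within type I is therefore the firmer measurement, since any scaling moves the 3 genes by the same amount.

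Type V collagen is a minor component of type I fibrils that limits their width. COL5A1 and COL5A2 stayed close to 0 with ratios of 0.05 (0.02 to 0.09) and 0.03 (-0.02 to 0.07), at 517 and 537 CPM and at 422 and 430 CPM. The gene col5a3b stood at 227 and 160.2 CPM, with a ratio of -0.50 (-0.57 to -0.44), and the rarer col5a3a at 7.48 and 5.02 CPM, with a ratio of -0.57 (-0.96 to -0.20). Both α3(V) copies were thus lower by similar folds. The copy col5a2b was the highest of the class at 0.44 (0.18 to 0.70), from 10.99 and 14.9 CPM. The minor fibrillar genes col24a1 and col27a1b had intervals that included 0, at 8.95 and 9.64 CPM and at 9.73 and 10.5 CPM. Of the 10 fibrillar genes, 2 had an interval above and 5 below 0, with a median of -0.0011. Over all genes above the floor these shares were 17.4% and 17.3%. They were 21.2% and 52.9% over genes that reached 100 CPM, as 6 of the 10 did.

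FACITs outside cartilage had a ratio below 0 in 7 of 8 genes, as did 50.3% of all genes above the floor, with a median of -0.23 and with 4 intervals below and 0 above 0. On the deposited FPKM the median was -0.0085, beside 0.0529 over all genes above the floor, so the size of the shift depends on the unit. An interval below 0 was found in 17.3% of all genes above the floor and in 52.9% of those that reached 100 CPM. Of the 4 FACITs at that level, 3 had one. The lowest was col14a1b, a FACIT of type I fibrils, at 120.5 and 85.8 CPM and a ratio of -0.49 (-0.58 to -0.40). Its copy COL14A1 stood at 36.2 and 30.6 CPM, with a ratio of -0.24 (-0.40 to -0.08). The most abundant FACIT gene, a COL12A1 gene (ENSDARG00000078322), was the exception at 567 and 581 CPM and a ratio of 0.03 (-0.0034 to 0.07). The other COL12A1 gene (ENSDARG00000019601) stood at 271 and 231 CPM, with a ratio of -0.23 (-0.29 to -0.17), and the intervals of the copies did not overlap. The gene col16a1 stood at 117 and 100.4 CPM, with a ratio of -0.23 (-0.31 to -0.14). Its deposited FPKM went the other way, from 32.4 to 37.5, and the length implied by count and FPKM went from 3544 to 2738 bases. The remaining FACIT genes, col21a1 and both col19a1 genes, stood between 1.98 and 3.87 CPM, and no difference was detectable at this depth.

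Most markers of skin and fin folds, tissues that also make collagen, were lower in the treated library. The actinodin genes and1, and2 and and3, which encode structural proteins of the fin fold, had ratios of -0.34, -0.28 and -0.48, and their summed level was 987 and 787 CPM. In the skin list, the epidermal keratin gene krt4 stood at 6570 and 4650 CPM, TP63 had -0.32 (-0.47 to -0.17), and 3 of 4 markers had an interval below 0. The other, ITGB4, had a ratio of 0.09 (-0.05 to 0.22). An interval below 0 was found in 17.3% of all genes above the floor. It was found in 52.9% of those that reached 100 CPM, as krt4 and all 3 actinodin genes did. Fibroblast and tendon markers went both ways, with a median of -0.06 over 11 genes, 3 intervals above and 4 below 0. The lowest was twist1a at -0.34 and the highest the tenocyte gene TNMD at 0.60. Their part in the fibrillar and FACIT values was not tested.

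**Figure D3:**
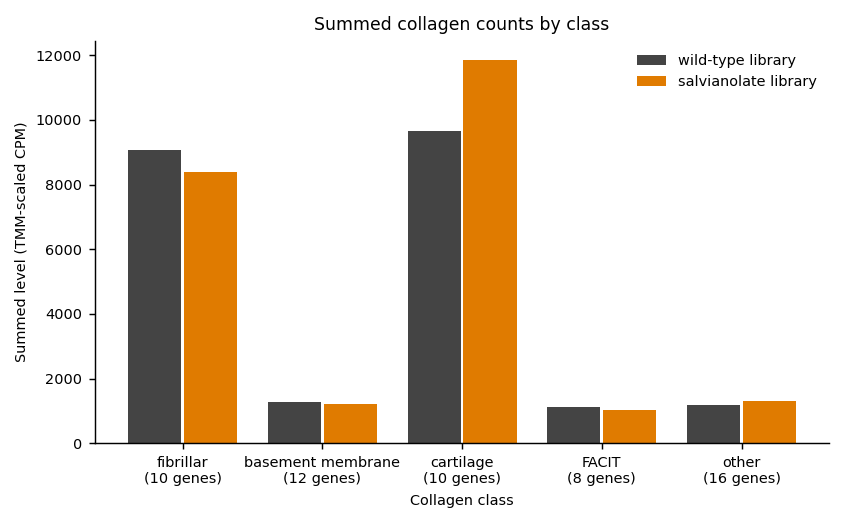
Summed level of each collagen class in the wild-type (dark) and salvianolate (orange) libraries, as TMM-scaled CPM on a linear axis from 0. The cartilage class goes from 9661 to 11850 CPM and the fibrillar class from 9053 to 8375 CPM, while the other classes lie between 1037 and 1317 CPM.

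The balance between classes therefore differed between the libraries. All collagens together took 2.18% of the wild-type counts (2.178 to 2.191, exact Clopper-Pearson) and 2.43% of the treated counts (2.426 to 2.440). Cartilage collagens made up 43.3% (wild type) and 49.8% (treated) of the collagen counts, and fibrillar collagens 40.6% and 35.2%. These shares need no scaling between libraries, but as parts of 1 total they are tied. A larger cartilage share by itself makes the fibrillar share smaller. Of all counts, fibrillar collagens took 0.886% (wild type) and 0.856% (treated), and cartilage collagens 0.945% and 1.21%. The shares rest on few genes, since col1a1a and the abundant COL2A1 gene are the largest members of their classes. Summed CPM of the cartilage class was 1.23-fold higher, and those of the fibrillar, FACIT and basement membrane classes had ratios of -0.11, -0.11 and -0.07.

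The genes of the basement membrane class were close to 0 in type IV, while in type VII the 2 more abundant genes were lower and the rarest was higher. Type IV collagen forms the network itself. Its 6 genes fall into 3 pairs of neighbouring genes in the RefSeq gene order of assembly GRCz12tu. COL4A1 stood at 61.6 and 65.3 CPM and its neighbour COL4A2 at 60.7 and 63.5 CPM, with ratios of 0.08 (-0.03 to 0.20) and 0.06 (-0.05 to 0.18). The pair col4a5 and col4a6 was the most abundant, at 477 and 474 CPM and at 210.0 and 199.8 CPM, with ratios of -0.0069 (-0.05 to 0.03) and -0.07 (-0.14 to -0.01). In both of these pairs the intervals of the members overlapped.

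The pair col4a3 and COL4A4 has to be read as a sum. Their estimated counts were not whole, 176.76 and 205.24 (wild type) and 164.27 and 185.73 (treated). Added together they were whole, 382 and 350, so a change in how reads are split between them would not alter the sum. The sum had a ratio of -0.17 (-0.38 to 0.04). The deposited FPKM of COL4A4 went from 3.20 to 0.910, a larger difference than that of its count, and the implied length went from 3284 to 10578 bases, so FPKM values of this gene are not compared here.

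Type VII collagen forms the anchoring fibrils that tie the epidermal basement membrane to the dermis. The gene col7a1 stood at 61.6 and 47.6 CPM, with a ratio of -0.37 (-0.50 to -0.25), and the first col7a1l gene (ENSDARG00000069692) at 33.0 and 27.8 CPM, with a ratio of -0.25 (-0.41 to -0.08). The FPKM of col7a1, 6.84 and 6.89, did not show this difference. The second col7a1l gene was counted as higher at 1.26 (0.14 to 2.60), from counts of 9 and 23. Collagens XV and XVIII are proteoglycans of the basement membrane zone. The gene col18a1a stood at 307 and 264 CPM, with a ratio of -0.22 (-0.28 to -0.17), its copy col18a1b at 10.9 and 12.7 CPM, with a ratio of 0.23 (-0.04 to 0.50), and col15a1b had 0.14 (0.02 to 0.27), from 50.4 and 55.6 CPM. Over the 12 genes of the class, 2 intervals lay above (16.7%) and 4 below 0 (33.3%), with a median of -0.04. Over all genes above the floor these shares were 17.4% and 17.3%.

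Among the collagens outside these classes, 4 of the 5 type VI genes had ratios close to one another. Type VI forms beaded filaments around muscle fibres and other cells, from chains encoded by col6a1, COL6A2 and COL6A3 or a gene related to it. The ratios of these were 0.23 (0.17 to 0.28), 0.23 (0.17 to 0.30) and 0.22 (0.15 to 0.29), from 259 and 303 CPM, 194 and 228 CPM, and 172 and 200.4 CPM. The gene col6a4a had 0.16 (0.09 to 0.23), from 178 and 199 CPM. These 4 intervals overlap one another and lie above 0. An interval above 0 was found in 17.4% of all genes above the floor. It was found in 21.2% of those that reached 100 CPM, as these 4 did. Skeletal muscle markers, whose fibres type VI surrounds, had a median ratio of 0.07 over 7 genes. They ranged from 0.0052 to 0.27, the highest being a TNNT3 gene (ENSDARG00000068457). Their part in the type VI values was not tested.

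The copy col6a4b (ENSDARG00000112419) departed from the rest of type VI and was the collagen gene counted as higher with the most counts. It went from 13.5 CPM (wild type) to 28.3 CPM (treated), from counts of 258 and 559, a ratio of 1.07 (0.86 to 1.29) or a fold of 2.10 (1.81 to 2.44). The interval does not exclude folds under 2. Its implied length went from 5504 to 4063 bases, so that its FPKM went further, from 2.40 to 7.13.

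**Figure D4:**
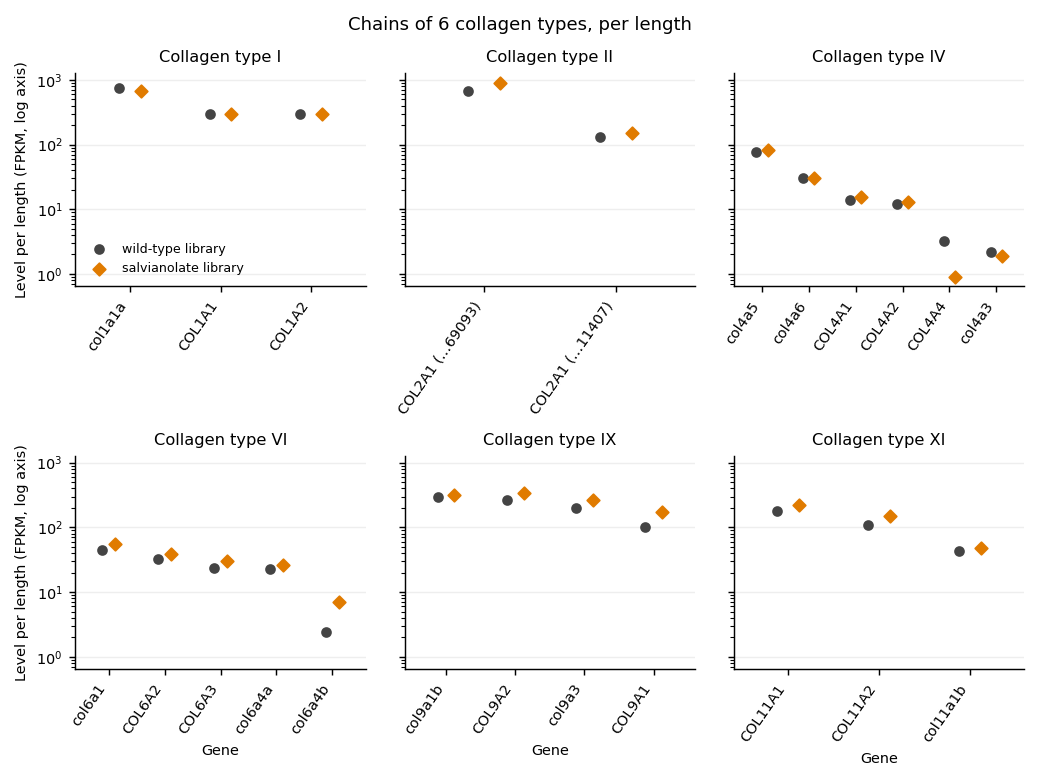
Deposited level per length (FPKM, log axis) of the genes of collagen types I, II, IV, VI, IX and XI in the wild-type (dark circles) and salvianolate (orange diamonds) libraries. Type VI chains keep their order, col6a4b lies below them and goes from 2.40 to 7.13 FPKM, and COL4A4 goes from 3.20 to 0.910 FPKM, where the implied length differs between libraries.

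Per length, the order of chains was the same in both libraries in types I, II, VI and XI. In type IX, col9a1b was above COL9A2 in the wild-type library (299 and 262 FPKM). It was below COL9A2 in the treated library (314 and 336 FPKM). The pair COL4A4 and col4a3 is left out, as the implied length of COL4A4 differed between libraries. On the deposited FPKM, col1a1a and COL1A1 together exceeded COL1A2 3.58-fold (wild type) and 3.29-fold (treated). COL4A1 exceeded COL4A2 1.16-fold and 1.18-fold, col4a5 exceeded col4a6 2.54-fold and 2.69-fold, and col6a1 exceeded COL6A2 1.41-fold and 1.40-fold. Within type IX, the ratio of col9a3 to COL9A2 was 0.753 and 0.776, and that of the sum of both α1(IX) genes to COL9A2 was 1.54 and 1.45. In type XI, the α1 genes together exceeded COL11A2 2.03-fold and 1.77-fold, the largest relative difference among these ratios. FPKM carries no counts of its own, so these ratios have no interval.

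The remaining genes of the class called other were mixed. COL8A2, a short-chain collagen of the cornea and vessels in mammals, stood at 42.3 and 60.3 CPM, with a ratio of 0.51 (0.38 to 0.64). The related gene col8a1a stood at 94.2 and 81.6 CPM, with a ratio of -0.21 (-0.31 to -0.11), and COL8A1 at 2.30 and 3.60 CPM, with a ratio of 0.64 (0.08 to 1.22). Type XVII is a transmembrane collagen of the hemidesmosomes of basal keratinocytes; col17a1a stood at 149 and 132 CPM, with a ratio of -0.17 (-0.25 to -0.09), and col17a1b at 24.7 and 26.4 CPM had an interval that included 0. The lowest ratio of all 56 collagens was that of col28a2a, at 25.2 and 13.8 CPM and -0.86 (-1.08 to -0.64), whereas its copy col28a2b, at 3.35 and 4.82 CPM, had 0.52 (0.05 to 1.01). Among the rest, col28a1a had -0.32 (-0.54 to -0.10), from 19.3 and 15.5 CPM. The intervals of col28a1b, at 1.36 and 1.83 CPM, of col23a1a, at 9.52 and 9.13 CPM, and of col23a1b, at 7.69 and 8.37 CPM, included 0. In the class as a whole, 8 of 16 genes had an interval above and 4 below 0, with a median of 0.19. These are 50% and 25%, beside 17.4% and 17.3% of all genes above the floor.

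Genes of 1 collagen chain were compared in pairs. Of 19 pairs of genes whose names begin with the same collagen and chain number, both above the floor, the intervals did not overlap in 13. These pairs include col7a1 with each col7a1l gene, whose names differ by more than a copy letter. In 4 pairs the intervals lay on opposite sides of 0: col28a2a with col28a2b, COL8A1 with col8a1a, and the second col7a1l gene with both col7a1 and the first col7a1l gene. The second col7a1l gene had counts of 9 and 23 only, and the type VII genes each enter more than 1 pair. No share was computed over copies of other genes, and intervals are narrow at high counts. These counts are therefore not read as a trait of collagen copies. Copies may share reads, and the way the authors' estimation split them was not given in the sources used here. A count that was not whole was found in 5 of the 56 collagens. Among the paired copies this held for col14a1b and the first col7a1l gene only.

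At a fold of 1.5 or more with an interval that excludes 1, the collagen genes higher in the treated library were col6a4b, the second col7a1l gene, COL9A1 and COL8A1, and the gene lower was col28a2a. These are 4 and 1 of 56, beside 6.07% and 2.64% of all genes above the floor. These shares lie close to those of all genes, and the differences of the classes described here were small folds at high counts.

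Partner genes that fold, trim, cross-link, bind or degrade collagen went different ways by list. Over all genes above the floor, 17.4% had an interval above 0 and 17.3% had one below 0. Enzymes and chaperones of folding and modification had a median ratio of -0.09, with 1 interval above and 8 below 0 in 22 genes. The median was -0.03 with total-count scaling and -0.01 on FPKM, where the median of all genes above the floor was 0.06 and 0.05. SERPINH1 (ENSDARG00000019949), the collagen chaperone HSP47, stood at 188 and 174 CPM, with a ratio of -0.11 (-0.18 to -0.05). Its FPKM, 122.1 and 122.7, did not show this difference. The other SERPINH1 gene (ENSDARG00000075954) stood at 122 and 116 CPM, with a ratio of -0.08 (-0.16 to 0.0063). The lowest was P4HA1 (ENSDARG00000071082), a prolyl hydroxylase subunit, at 71.3 and 54.1 CPM and -0.40 (-0.51 to -0.28). The highest was the prolyl hydroxylase gene P3H2 at 0.19 (-0.08 to 0.47), and the most abundant PPIB, a prolyl isomerase, at -0.07 (-0.11 to -0.03). Genes of secretion had a median of -0.06 over 9 genes, from klhl12 (ENSDARG00000100631), an adaptor of large transport vesicles, at -0.65 (-1.10 to -0.20) to mia2 at 0.23, with the collagen-binding SPARC the most abundant at 1034 and 989 CPM.

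Genes of processing and cross-linking had a median of 0.05, with 5 intervals above and 3 below 0 in 21 genes. These are 23.8% and 14.3%, near the 17.4% and 17.3% of all genes above the floor. The highest was pcolceb, an enhancer of procollagen C-proteinase, at 4.76 and 13.7 CPM and 1.52 (1.18 to 1.88), whereas its copy pcolcea had -0.20 (-0.32 to -0.08). In the partner lists, pcolceb was the 1 gene counted as different, beside 2.69% of all genes counted as higher and 0.721% as lower. The lowest gene of processing and cross-linking was a PCOLCE2 gene (ENSDARG00000008450) at -0.38, with an interval of -0.89 to 0.12. The most abundant was the C-proteinase gene BMP1 (ENSDARG00000028071) at 115 and 114 CPM. Collagen receptors had a median of -0.07 over 14 genes. The highest of them was ITGA10, an integrin chain of chondrocytes, at 19.3 and 25.8 CPM and 0.42 (0.22 to 0.62), and the lowest an ITGB1 gene (ENSDARG00000053232) at -0.41. The most abundant receptor gene was another ITGB1 gene (ENSDARG00000071863) at 122 and 126 CPM.

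Basement membrane partners had a median of -0.07 over 25 genes, with 4 intervals above and 11 below 0. These are 16% and 44%, beside 17.4% and 17.3% of all genes above the floor and 21.2% and 52.9% of those that reached 100 CPM. The lowest was the laminin gene lamb4 at -0.51 (-0.71 to -0.30), the highest lama3 at 0.41 (0.03 to 0.80), and the most abundant lamc1 at 271 and 259 CPM. Small leucine-rich proteoglycans, which coat fibrils, had a median of 0.21 over 11 genes, with 3 intervals above (27.3%) and 2 below 0 (18.2%). With a floor of 5 CPM their median was 0.11. Epiphycan, epyc, was the most abundant at 178 and 222 CPM with 0.32 (0.25 to 0.38), and LUM was the lowest at -0.18. BGN (ENSDARG00000017884) was the highest at 0.66 (0.01 to 1.34), from only 1.73 and 2.74 CPM. Collagen-degrading enzymes and their inhibitors had ratios above 0 in 11 of 11 genes and intervals above 0 in 5 (45.5%). Over all genes above the floor these shares were 49.7% and 17.4%. The gelatinase gene MMP2, the most abundant, had 0.14 (0.07 to 0.21) and the collagenase gene mmp13a, the highest, 0.87 (0.22 to 1.57), from 1.57 and 2.89 CPM. CTSK was the lowest at 52.2 and 52.2 CPM, with a ratio of only 0.0004 (-0.13 to 0.13).

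**Figure D5:**
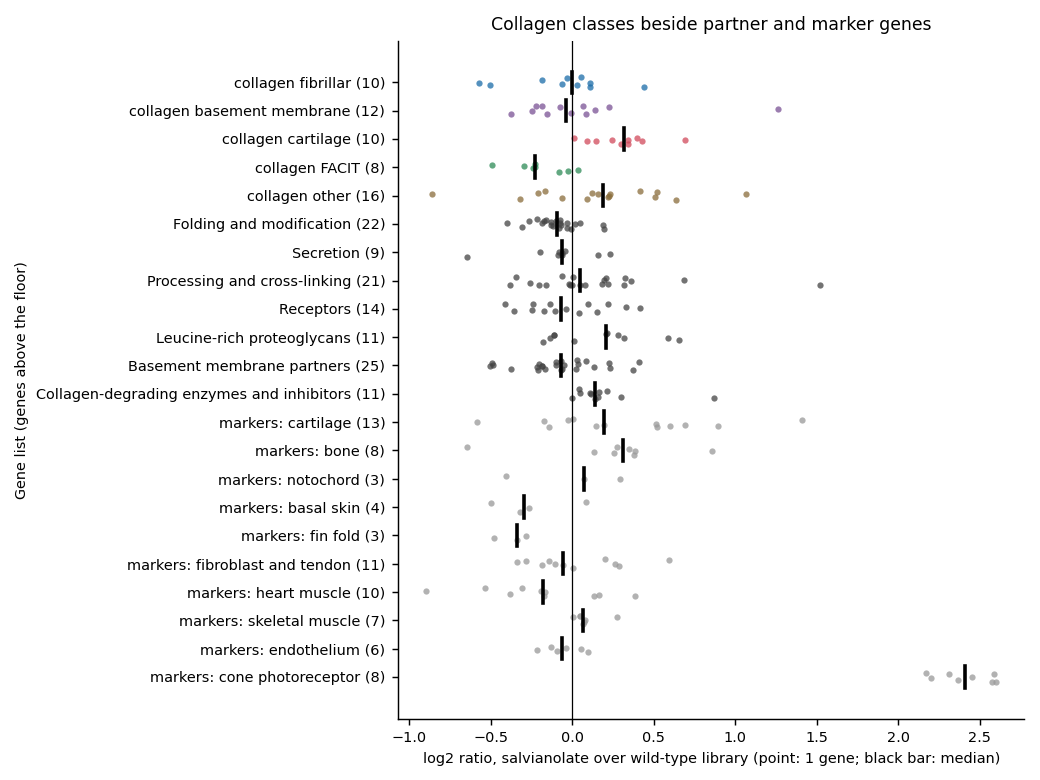
Log2 ratios, salvianolate over wild-type library, of the 5 collagen classes, 7 lists of partner genes and 10 lists of tissue markers, with 1 point per gene above the floor and a black bar at the median of each list. The cartilage collagens lie right of 0 with a median of 0.32, and folding and modification genes have a median of -0.09. The 8 photoreceptor genes of the list labelled cone photoreceptor lie between 2.17 and 2.60.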

How the data were processed

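RNA-seq of 1 wild-type and 1 salvianolate-treated library was deposited as 1 table. Per the file headers it holds estimated counts (expected counts) and FPKM of each gene. The deposited estimated counts are not normalised, and 10.3% and 10.4% of them are not whole. The FPKM values were scaled by the authors to length and total count. Per the submitters' processing notes, HISAT2, Bowtie2 2.2.8, fastp 0.18.0, StringTie 1.3.1, edgeR and DESeq2 are named with build danRer11, their roles, settings and strand handling not given in the sources used here. For all 26597 genes, each single-library file holds the counts that the deposited table gives for that library.

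Counts were rounded and scaled by TMM factors (edgeR 4.0.16, R 4.3.3). The floor was 1 CPM of the total count in 1 or both libraries. Ratios had a prior of 0.5 counts and exact 95% Clopper-Pearson intervals, which cover counting error only. A counted difference needed a fold of 2 and an interval excluding 1; the interval code was tested on simulated data. Classes followed the collagen number: fibrillar 1, 5, 24 and 27; basement membrane 4, 7, 15 and 18; cartilage 2, 9, 10 and 11; FACIT 12, 14, 16, 19 and 21; other 6, 8, 17, 23 and 28. Names came from a table of IDs and symbols, which named 23499 genes and gives some copies the same symbol. Lists were matched by name in lower case, with or without a copy letter. In each class the 3 most abundant genes, the highest and lowest ratios, counted genes and trimer chains were named, and in each partner list the highest, lowest and most abundant. The SERPINH1 genes and pcolcea were named in addition. From the marker lists only some genes were named, without that rule. The members and lists were chosen with earlier results of these data known. Alternatives changed the scaling (total count, DESeq2 1.42.0 median-of-ratios, upper quartile), floor, prior, fold, interval or unit (FPKM with a pseudocount of 0.5). Other steps ran in Python 3.11.15 (scipy 1.17.1, pandas 2.3.3, numpy 2.4.6; figures with matplotlib 3.10.9).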

Additional observations from a re-analysis of the deposited data

How the results depend on the processing

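No paired analysis was possible because a single library stands for each group. The counts of 2 collagens higher and 0 lower became 1 higher with a floor of 5 CPM, 4 and 1 at a fold of 1.5, and 0 higher at a fold of 4. They also became 0 higher when the interval had to exclude the fold of 2, and with a floor of 100 CPM, which was added after seeing the data. Intervals lay above a ratio of 1 in 21 collagens (37.5%) and below it in 17 (30.4%), beside 17.4% and 17.3% of all genes above the floor. With the floor of 100 CPM these were 14 (50%) and 10 (35.7%), beside 21.2% and 52.9% of all genes at that level. Total-count scaling gave 29 above and 14 below, with no share over all genes computed. With FPKM, 1 collagen, COL4A4, was lower, where the implied length differed between libraries. Of the partner genes, 5 were higher and 1 lower at 1.5-fold, beside 6.07% and 2.64% of all genes above the floor, and 0 were higher at 4-fold. The counts over all genes, 533 and 143, became 311 and 53 with FPKM, 185 and 32 with a floor of 5 CPM, 75 and 21 at 4-fold, 161 and 33 where intervals lay beyond the fold of 2, 1204 and 523 at 1.5-fold, and 235 lower without a floor. A higher floor or fold can only remove genes. The median of the cartilage class lay between 0.298 and 0.382 in 7 alternatives of scaling, floor, prior and unit, and that of FACITs between -0.242 and -0.0085. The median of the fibrillar class lay between -0.016 and 0.062, that of the basement membrane class between -0.072 and 0.033, and that of the class called other between 0.121 and 0.252. The median of folding and modification genes was -0.0299 with total counts and -0.0143 with FPKM, beside 0.0605 and 0.0529 over all genes above the floor. Total counts moved the median of all genes by 0.0626 and turned 5 collagens from below to above 0 (COL1A1, COL1A2, col4a5, col23a1a and a col19a1 gene), upper-quartile scaling turned 1, col9a1b, and FPKM turned 7. Genes under about 5 CPM have intervals wider than most differences described.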
